A study of Mus musculus with 8 samples.

Results

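A set of 10 genes that mark the stem cells at the base of the intestinal crypt was followed in RNA sequencing of mouse colonic organoids, which are epithelial cultures that grow from isolated crypts in a gel. They were taken by gene symbol from the table of 45777 genes: Lgr5, Ascl2, Smoc2, Olfm4, Tnfrsf19, Rgmb, Cdca7, Lrig1, Msi1 and Prom1, and all 10 were in the table. One group came from Reg3a ΔIEC mice, where Villin-Cre, a recombinase driven in intestinal epithelium, removes loxP-flanked exons of Reg3a (KO, 4 libraries, replicates 5 to 8). The other came from Reg3a fl/fl mice, which carry the loxP sites (WT, 4 libraries, replicates 13 to 16). Both groups were floxed at Reg3a, which encodes a secreted antimicrobial lectin. The donors were male mice aged 9 weeks, C57BL/6J being the strain the labels name, and untreated organoids were collected 3 days after passage.

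The labels contradict themselves on replication, naming 4 wells from 1 mouse of each genotype but also 3 mice in triplicate. Every p-value therefore sets the difference between groups against the scatter among the 4 libraries of a genotype, which may be technical. Genotype cannot be told apart from mouse or organoid line. Library totals lay between 37182098 and 49256171 counts. Reg3a had 0 counts in all 8 libraries and so could not check the labels. Mitochondrial transcripts took 1.41% to 1.74% of counts in KO and 0.997% to 1.23% in WT. That share moved with genotype without overlap, and its part in the results was not tested. KO replicate 6 stood apart: 24 genes had at least 20 counts there and 0 in the other 7 libraries, against 1 such gene in WT replicate 14 and 0 in the remaining libraries. It held 480 counts of the lysozyme gene Lyz2, 30 of the endothelial gene Cdh5, 14 of Kdr, 20 of Pecam1 and 64 of the matrix gene Sparc, which were at 0 to 4 counts in every other library.

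Crypt base stem cells divide continuously under Wnt and R-spondin signals, and their daughters climb the crypt while they differentiate. LGR5 is the R-spondin receptor that defines them and ASCL2 is the Wnt-induced transcription factor that maintains their programme. Most of these markers were established in the small intestine, and not all are used by the mouse colon: Olfm4 is a strong stem cell marker there in human but not in mouse. The label was only partly borne out in these cultures, because 7 of the 10 markers passed the count filter and 3 were at or near 0.

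Of the 7 tested markers, 4 fell in KO, namely Lgr5, Ascl2, Smoc2 and Cdca7. Prom1 rose slightly, and Rgmb and Lrig1 did not pass the test. The test was edgeR's quasi-likelihood test with Benjamini-Hochberg adjustment at 0.05. It called 15.9% of all 14945 genes tested, 8.26% lower and 7.63% higher in KO. Libraries of the genotypes did not overlap for 4 markers with KO below and 1 with KO above, and for 20.2% of all genes tested. The median log2 fold change was -0.26 over the 7 tested markers and -0.0012 over all genes tested. Without KO replicate 6 the log2 fold changes were -0.50 for Lgr5, -0.40 for Ascl2, -1.11 for Smoc2, -0.23 for Cdca7 and 0.16 for Prom1, and each still passed. In bulk RNA, fewer stem cells and less RNA per stem cell cannot be told apart.

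The RefSeq bases before the start of the gene are shown for the called markers that fell and have an entry with bases outside the gene model, with a short stretch of Tnfrsf19 for contrast. All are from GRCm38.p6, 5′ to 3′ on the gene's strand. Capitals mark CCAAT, the NF-Y box, in Ascl2 (chr7:142969265-142969514, minus strand). They mark an E2F motif in Cdca7 (chr2:72475969-72476186, plus strand), and CTTTGAT, a TCF/LEF motif of Wnt signalling, in Tnfrsf19 (chr14:61038173-61038199, minus strand, before its inner start). Matches on either strand are marked.
Ascl2: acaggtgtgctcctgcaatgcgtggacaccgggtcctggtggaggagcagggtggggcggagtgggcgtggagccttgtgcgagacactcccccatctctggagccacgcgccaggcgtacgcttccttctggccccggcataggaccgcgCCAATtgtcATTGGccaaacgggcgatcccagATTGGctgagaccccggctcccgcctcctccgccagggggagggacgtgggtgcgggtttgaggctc
Cdca7: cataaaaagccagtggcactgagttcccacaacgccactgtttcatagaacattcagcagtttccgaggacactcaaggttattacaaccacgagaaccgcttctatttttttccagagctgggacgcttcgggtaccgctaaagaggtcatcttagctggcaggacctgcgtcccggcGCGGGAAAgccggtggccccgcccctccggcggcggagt
Tnfrsf19: tgaatgggggATCAAAGtgacaaacta

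Searches covered the 250 bases before each start, and 7 of the 10 markers matched an entry, with 11 windows in all. CTTTGAT was found in 1 of these windows, that of Tnfrsf19, against 3.21% of 32536 windows over all genes. CAGCTG, the E-box that ASCL2 binds, was found in 1 of the 11, the same window, against 13.1% of all. The E2F motif (TTTCCCGC, TTTCGCGC, TTTGCCGC or TTTGGCGC) was found in 1, that of Cdca7, against 1.87%. CCAAT stood in 6 of the 11 windows, with 3 matches in Ascl2, against 33.8% of all. The E2F and CCAAT letters were chosen after the sequences were seen, so their counts beside the shares of all windows are not a test. Some windows of Rgmb share bases and are not independent. These are letter matches in a short window only.

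Lgr5 (chromosome 10, 115450314 to 115587780, minus strand) encodes the receptor after which the cells are named. Its level in CPM, counts scaled to library size with TMM factors, was 44.0, 39.1, 39.7 and 40.1 in WT replicates 13 to 16. In KO replicates 5 to 8 it was 27.3, 29.4, 30.3 and 28.7 CPM. Every KO library lay below every WT library, and the spread within each genotype was small, with a coefficient of variation of 4.36% in KO and 5.48% in WT. Non-overlap with KO below held for 10.3% of all genes tested. Lgr5 fell by 0.49 ± 0.05 on the log2 scale (SE, edgeR adjusted p = 6.0e-05), to 71.0% of the WT mean. By its p-value it ranked 96 of the 14945 genes tested, the highest rank among the markers.

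Ascl2 (chromosome 7, 142966822 to 142969264, minus strand) had 15.0, 15.5, 13.9 and 13.0 CPM in WT replicates 13 to 16. The KO libraries held 9.89, 11.7, 12.7 and 10.01 CPM. The groups did not overlap, but the highest KO library, replicate 7, and the lowest WT library, replicate 16, were nearly level. Ascl2 fell by 0.38 ± 0.09 on the log2 scale (SE), with an edgeR adjusted p = 0.0123. Without KO replicate 8 the call ended (log2 fold change -0.33, edgeR adjusted p = 0.0527).

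Smoc2 (chromosome 17, 14279490 to 14404790, plus strand) encodes a secreted calcium-binding matrix protein of the SPARC family. It was the least abundant of the tested markers, with 52, 66, 88 and 49 counts in WT replicates 13 to 16 and 28, 37, 26 and 37 counts in KO replicates 5 to 8. Scaled, the WT libraries ran from 1.25 to 1.87 CPM and the KO libraries from 0.549 to 0.796 CPM, without overlap. Smoc2 fell by 1.06 ± 0.21 on the log2 scale (SE, edgeR adjusted p = 0.00389), to 48.0% of the WT mean. That was the largest fold change among the 7 tested markers, and also the one with the largest SE.

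Cdca7 (chromosome 2, 72476187 to 72486892, plus strand) encodes a zinc finger protein that works with the remodeller HELLS in maintaining DNA methylation, and it is transcribed with the cell cycle. Its level was 72.7, 69.9, 80.1 and 69.6 CPM in WT replicates 13 to 16 and 60.8, 56.0, 63.2 and 63.5 CPM in KO replicates 5 to 8. All KO libraries lay below all WT libraries. Cdca7 fell by 0.26 ± 0.06 on the log2 scale (SE), at an edgeR adjusted p = 0.00663, and the KO mean was 83.3% of the WT mean.

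Prom1 (chromosome 5, 43993621 to 44102047, minus strand), which encodes the pentaspan membrane protein CD133, went the other way. It had 566, 556, 566 and 534 CPM in WT replicates 13 to 16 and 624, 602, 597 and 644 CPM in KO replicates 5 to 8. KO lay above WT in every library, a pattern of 9.91% of all genes tested. With a log2 fold change of 0.15 ± 0.04 (SE), the KO mean was 111% of the WT mean (edgeR adjusted p = 0.0154). The call ended without KO replicate 5 (edgeR adjusted p = 0.0547) or KO replicate 8 (0.0664). In the intestine Prom1 is also transcribed by cells that have left the crypt base.

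Rgmb and Lrig1 did not pass the test. Rgmb (chromosome 17, 15804661 to 15831246, minus strand) encodes a co-receptor for bone morphogenetic proteins (BMPs). It ran from 19.9 to 22.0 CPM in WT and from 19.2 to 22.5 CPM in KO, so that the WT range lay inside the KO range. Its log2 fold change was -0.03 (95% interval -0.16 to 0.11, edgeR adjusted p = 0.845). Lrig1 (chromosome 6, 94604529 to 94700298, minus strand), a leucine-rich repeat inhibitor of ErbB receptors, had 208, 191, 192 and 220 CPM in WT replicates 13 to 16. The KO libraries held 196, 182, 194 and 184 CPM, and the groups overlapped. Its log2 fold change was -0.10 (95% interval -0.21 to 0.0095, edgeR adjusted p = 0.219). Both intervals leave out a fall as large as the fitted one of Lgr5. Lrig1 is on the chromosome of Reg3a, 16.2 Mb from it.

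**Figure D1:**
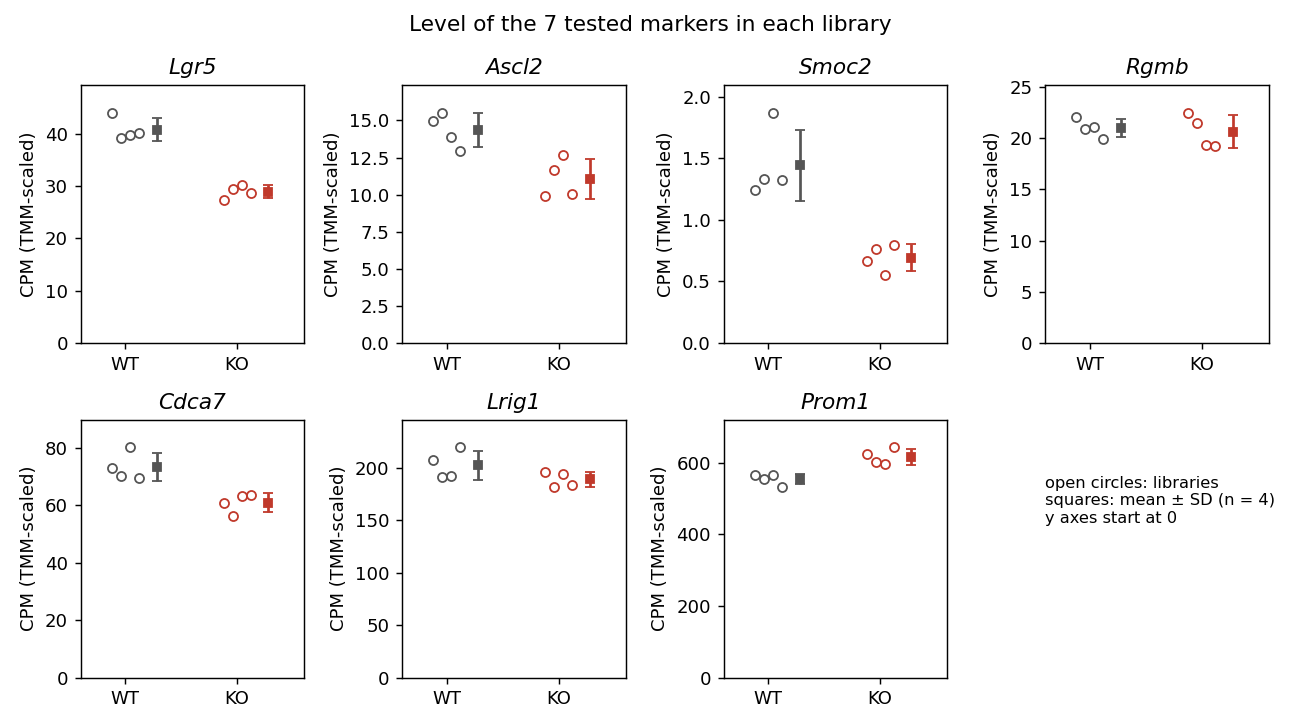
TMM-scaled CPM of the 7 tested markers in each WT and KO library (open circles), with mean and SD (squares and bars, n = 4). Lgr5 stands at 39.1 to 44.0 CPM in WT and 27.3 to 30.3 CPM in KO, and Rgmb and Lrig1 overlap between genotypes.

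The remaining 3 markers were close to absent. Olfm4, a secreted glycoprotein gene (chromosome 14, 80000302 to 80023141), had 0, 2, 6 and 0 counts in KO replicates 5 to 8 and 2 in WT replicate 14 alone. Tnfrsf19 (chromosome 14, 60963834 to 61046855), which encodes TROY, a receptor of the TNF receptor family found on Lgr5-positive cells, had 3 counts in WT replicate 14 and 0 in the other 7 libraries. Msi1 (chromosome 5, 115359059 to 115455698), which encodes the RNA-binding protein Musashi-1, had 4, 0, 5 and 0 counts in KO replicates 5 to 8 and 6 in WT replicate 14 alone. Where no read was seen, 3 counts remain possible from counting error alone, which is 0.0606 to 0.0810 CPM depending on the library. They did not pass the count filter. Tested without it, none was called (edgeR adjusted p = 0.555 for Olfm4, 0.416 for Tnfrsf19 and 0.873 for Msi1), so differences were not detectable at this depth.

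Levels were compared between genes on the authors' TPM, which is scaled for transcript length. In WT the order was Prom1 (288 ± 11.3 TPM, SD, n = 4), Lrig1 (79.1 ± 4.55), Cdca7 (59.7 ± 4.83), Ascl2 (17.4 ± 1.35), Lgr5 (16.9 ± 0.968), Rgmb (11.1 ± 0.357) and Smoc2 (0.988 ± 0.224 TPM). Ascl2 and Lgr5 overlapped, and the other neighbours among these 7 did not. In KO the same order held, with Lgr5 at 12.3 ± 0.580 TPM and Rgmb at 11.3 ± 1.03 TPM, but now the libraries of Lgr5 and Rgmb overlapped as well. Prom1 TPM was 17.05 ± 0.839 times Lgr5 TPM within WT libraries and 26.9 ± 1.96 times within KO libraries (SD, n = 4). Msi1, Olfm4 and Tnfrsf19 stayed at or below 0.0874 TPM in every library.

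**Figure D2:**
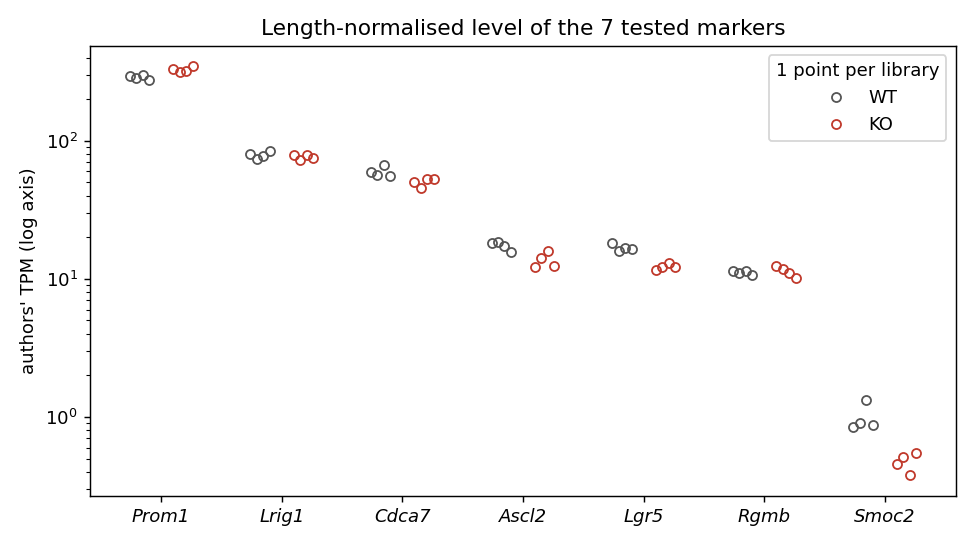
The authors' TPM on a log axis for the 7 tested markers, 1 point per library, WT grey and KO red, ordered by the WT mean. Prom1 lies at 274 to 346 TPM and Smoc2 at 0.378 to 1.32 TPM; Msi1, Olfm4 and Tnfrsf19, at or near 0, are not drawn.

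Within libraries the markers did not keep their proportions. Relative to Lgr5 in the same library, the log2 CPM difference of Prom1 was 3.68 to 3.83 in WT and 4.30 to 4.51 in KO. That of Lrig1 was 2.24 to 2.45 in WT and 2.63 to 2.84 in KO, and that of Rgmb -1.01 to -0.90 and -0.64 to -0.28. For these 3 genes the genotypes did not overlap. Each difference takes in the fall of Lgr5 itself, and the CPM of Rgmb and Lrig1 alone overlapped between genotypes. It is therefore no finding separate from the call of Lgr5. Relative to Lgr5, Ascl2 (-1.63 to -1.33 in WT, -1.52 to -1.26 in KO) and Cdca7 (0.72 to 1.01 in WT, 0.93 to 1.15 in KO) overlapped. Smoc2 went the other way, at -5.09 to -4.37 in WT and -5.68 to -5.09 in KO, next to each other without overlap. These differences were described without a test.

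Crypt base stem cells themselves divide, so genes of mitosis do not mark a separate cell type. These genes were lower in KO as well. The mitosis list held 24 tested genes and each of them fell, with a median log2 fold change of -0.33, and their summed level ran from 2025 to 2184 CPM in KO and from 2532 to 2907 CPM in WT. The kinase gene Aurkb (log2 fold change -0.55), the checkpoint gene Bub1b (-0.38), Top2a (-0.40) and Cdca8 (-0.36) had the smallest adjusted p. Lgr5 was therefore set against them. The log2 CPM of Lgr5 minus the mean of the 24 mitosis genes was -1.23, -1.23, -1.26 and -1.20 in WT replicates 13 to 16 and -1.48, -1.40, -1.32 and -1.33 in KO replicates 5 to 8. Every KO library was lower, and the genotypes differed by -0.15 (two-sided exact permutation p = 0.0286, n = 4, the smallest p that 4 against 4 libraries allow). With Mki67, the gene of the proliferation antigen Ki-67, as the only reference the difference was -0.20, with the same exact permutation p = 0.0286. Leaving out a library, the exact permutation p cannot go below 0.0571. Set against each of the 24 genes in turn, the difference was below 0 for 23 and above 0 for 1, Aurkb. The separation of the genotypes depends on the reference: Lgr5 was lower in every KO library for 12 and overlapped for the other 12. Against Aurkb alone, chosen after its values were seen, the difference was 0.06 (exact permutation p = 0.343).

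Measured in this way, the other markers differed among themselves. Smoc2 minus the mitosis mean was -6.32 to -5.63 in WT and -6.99 to -6.42 in KO, without overlap. Ascl2 (-2.83 to -2.56 in WT, -2.94 to -2.57 in KO) and Cdca7 (-0.50 to -0.25 in WT, -0.47 to -0.18 in KO) overlapped. Rgmb and Prom1 stood higher against the mitosis mean in every KO library, a difference that takes in the fall of that mean. Lrig1 (1.01 to 1.25 in WT, 1.23 to 1.36 in KO) overlapped. These differences were not tested.

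**Figure D3:**
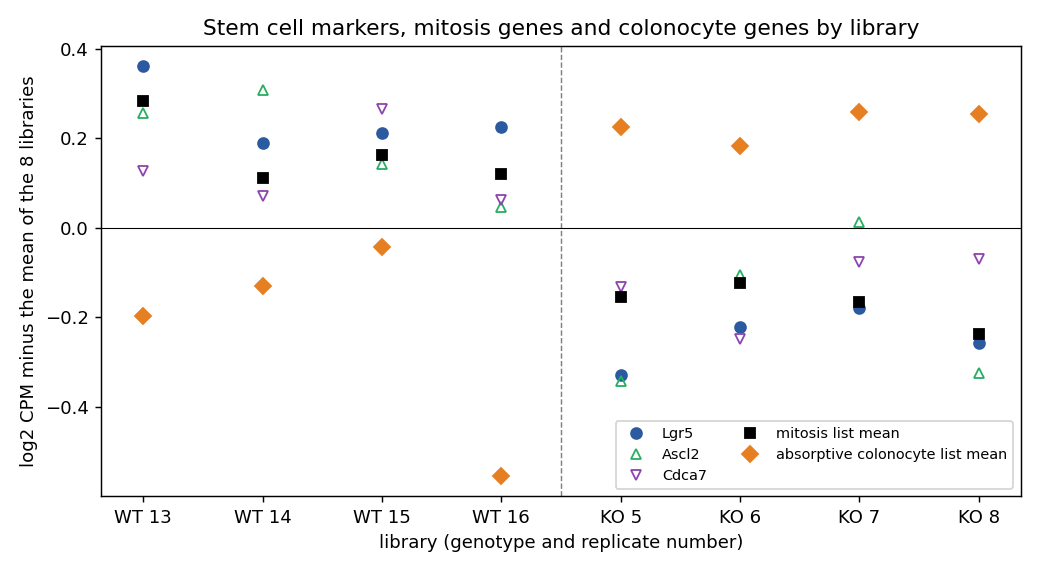
Log2 CPM minus the mean of the 8 libraries for Lgr5, Ascl2, Cdca7 and the means of the mitosis and absorptive colonocyte lists, WT left and KO right of the dashed line. Lgr5 spans 0.19 to 0.36 in WT and -0.33 to -0.18 in KO. The colonocyte mean lies below 0 in WT, lowest in WT replicate 16 at -0.55, and at 0.18 to 0.26 in KO. That mean weights scarce and abundant genes alike. In WT replicate 16 the scarce Car4 had 0 CPM, while Car1 had 890 CPM, within its WT range of 758 to 991 CPM.

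Other genes of the crypt base did not move as 1 block. Of 24 tested members of a list of 27, 7 fell and 3 rose, with a median log2 fold change of -0.04. Over all genes tested 8.26% were called lower and 7.63% higher, the shares to set beside the counts of this list and those below. Ephb3, a receptor that positions crypt cells, fell from 69.5 ± 4.96 to 51.6 ± 3.38 CPM (SD, n = 4; edgeR adjusted p = 4.3e-04), and Aqp4, a water channel gene of colonic crypts, from 482 ± 51.8 to 378 ± 10.2 CPM (adjusted p = 0.00186). Vdr, the vitamin D receptor gene, rose from 149 ± 2.88 to 181 ± 7.31 CPM (adjusted p = 5.3e-04), and Sp5, a Wnt-induced transcription factor gene, from 1.58 ± 0.240 to 3.00 ± 0.311 CPM (adjusted p = 9.9e-04). Ephb2 and Axin2, named after their values were seen, had log2 fold changes of -0.01 and 0.04 and did not pass. Axin2 is the standard readout of canonical Wnt signalling.

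Lgr5 is itself a Wnt target, and the other targets split. Of 12 tested Wnt target genes beside Lgr5, 3 rose and 2 fell: Sp5, the ubiquitin ligase gene Rnf43 (log2 fold change 0.21) and the cyclin gene Ccnd1 (0.18) rose, and Ephb3 (-0.43) and the transcription factor gene Tcf7 (-0.20) fell. The Tcf7 call ended without KO replicate 5 or 8, without WT replicate 13 or 14, or with no low-count filter (edgeR adjusted p = 0.0545 to 0.111). Over all genes tested 7.63% were called higher and 8.26% lower, and among 12 tested receptors and transducers of R-spondin and Wnt 2 rose and 2 fell. They included Lgr4, the broadly expressed relative of Lgr5, which went from 127 ± 6.86 to 142 ± 4.26 CPM (SD, n = 4), or 0.17 on the log2 scale (edgeR adjusted p = 0.0262), a call lost in 5 of 8 leave-outs, those of KO replicate 5, 7 or 8 and WT replicate 14 or 16 (adjusted p = 0.0532 to 0.0929). The frizzled receptor gene Fzd7 fell by 0.26 on the log2 scale (adjusted p = 0.00846). Lgr6, the remaining relative, had 6 to 22 counts per library and did not pass (adjusted p = 0.346).

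Genes linked to reserve or injury-induced stem cell states were mostly lower or not called. Of 9 tested, 4 fell and 1 rose. Hopx, a gene of reserve stem cells, fell from 367 ± 7.93 to 309 ± 10.1 CPM (SD, n = 4; edgeR adjusted p = 6.2e-04), and Ly6a, which encodes the surface antigen SCA-1, fell by 0.18 on the log2 scale (adjusted p = 0.00860). Mex3a, an RNA-binding protein gene of slowly cycling Lgr5-positive cells, fell by 0.36 on the log2 scale (edgeR adjusted p = 0.0142), a call that ended without KO replicate 8 (0.0504). Tert, the telomerase gene, was the one that rose (log2 fold change 0.26, adjusted p = 0.0498), with overlapping libraries; it was named after its value was seen.

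Relatives of the markers were read for each gene in turn, and those outside the rule for named genes were chosen for their kinship. Smoc1, the paralog of Smoc2, had 2, 10, 10 and 6 counts in WT replicates 13 to 16 and 40, 48, 35 and 47 counts in KO replicates 5 to 8. It rose by 2.52 ± 0.34 on the log2 scale (SE, edgeR adjusted p = 2.6e-04), and no leave-out of 1 library brought its adjusted p above 0.00175. On the authors' TPM, Smoc2 exceeded Smoc1 in WT (0.988 ± 0.224 against 0.0818 ± 0.0410), while in KO the means were 0.473 ± 0.0752 and 0.513 ± 0.0700 (SD, n = 4). Both genes were scarce, and the paralogs went in opposite directions.

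Msi2, the paralog of the nearly undetected Msi1, stood at 75.9 ± 10.7 TPM in WT and 82.1 ± 6.45 TPM in KO (SD, n = 4), and its log2 fold change of 0.10 did not pass (edgeR adjusted p = 0.414). Of 10 tested Musashi and Notch genes, 2 rose and 1 fell. The Notch ligand gene Jag1 rose from 30.8 ± 1.24 to 43.5 ± 2.69 CPM (log2 fold change 0.50, edgeR adjusted p = 6.5e-05). The Notch output gene Hes1 rose by 0.15 (adjusted p = 0.0378) and the ligand gene Dll4 fell by 0.43 on the log2 scale (adjusted p = 0.0393). The call ended in 5 of 8 leave-outs for Hes1 and for Dll4, with adjusted p up to 0.124 for Hes1 and 0.120 for Dll4. Dll4 also lost its call with no low-count filter (edgeR adjusted p = 0.0655), and its libraries overlapped between genotypes.

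Genes of DNA methylation listed beside Cdca7 fell or did not pass. Of 7 tested, 2 fell, where 8.26% of all genes tested were called lower. All 7 had negative log2 fold changes with a median of -0.15. Those of Dnmt3b (-0.02, edgeR adjusted p = 0.971) and Zbtb24 (-0.05, 0.699), named after their values were seen, were slight. Uhrf1, which recruits the maintenance methyltransferase, fell by 0.39 on the log2 scale (edgeR adjusted p = 7.3e-05). Dnmt1, that methyltransferase, fell by 0.18 on the log2 scale (adjusted p = 0.0303), with overlapping libraries. Its adjusted p was 0.0517 to 0.106 without KO replicate 5, 6 or 8, without WT replicate 13 or 16, or with no low-count filter. Cdca7l, the paralog, had a log2 fold change of -0.15 and did not pass (adjusted p = 0.0999), though it did without WT replicate 16 (0.0207).

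For Lrig1, 1 of 7 tested ErbB and Lrig genes rose and none fell. That gene was Ereg, the epiregulin ligand (log2 fold change 0.41, edgeR adjusted p = 0.00575), whose libraries overlapped between genotypes. The paralogs Lrig2 (-0.07) and Lrig3 (0.19) did not pass. For Rgmb, 1 of 11 tested BMP genes rose and 1 fell: Smad6, an inhibitor of BMP signalling, rose by 0.80 (adjusted p = 0.00500), and Id2, a BMP-induced gene, fell by 0.28 on the log2 scale (adjusted p = 0.00962). The other 9 were not called, among them, named after their values were seen, Id1 (0.05, edgeR adjusted p = 0.562), Id3 (-0.25, 0.0661) and Smad7 (-0.03, 0.813). For both lists the share called was near the 15.9% called over all genes tested. Prom2, the paralog of Prom1, had a log2 fold change of -0.02 and did not pass (adjusted p = 0.962). Tnfrsf21, a relative of the nearly absent Tnfrsf19, rose by 0.24 (adjusted p = 0.00192).

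**Figure D4:**
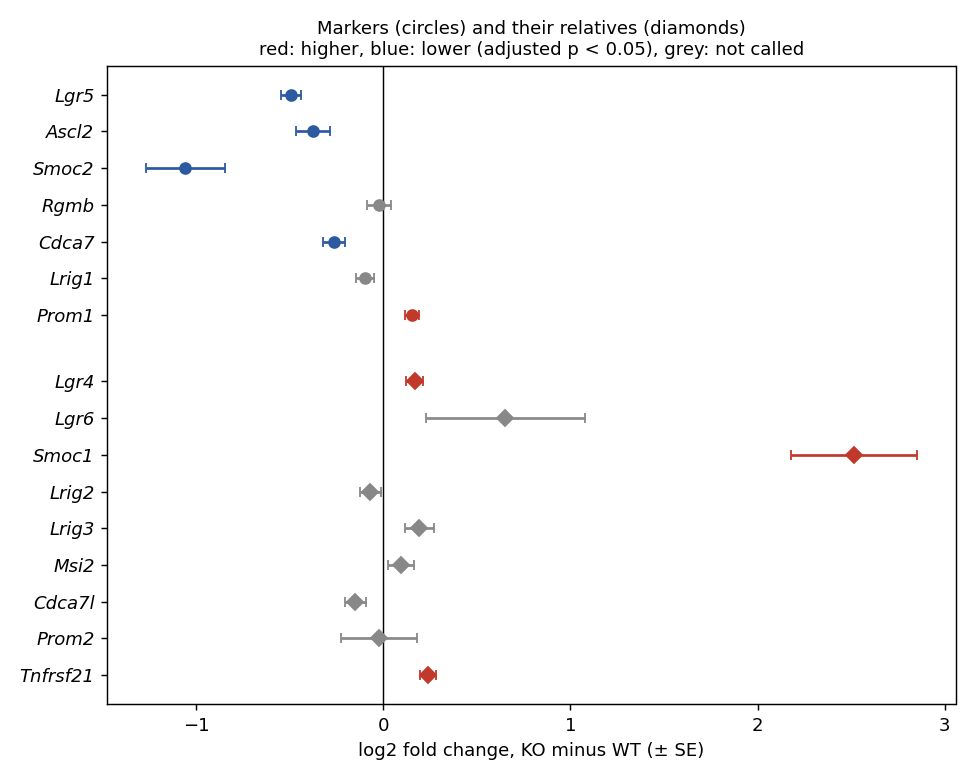
Log2 fold change, KO minus WT, with SE for the 7 tested markers (circles) and 9 relatives (diamonds), red where higher, blue where lower and grey where the test was not passed. Smoc2 (-1.06) and its paralog Smoc1 (2.52) lie at opposite ends.

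The genes whose levels followed each marker most closely over the 8 libraries were found by the root mean square difference of centred log2 CPM, among 8851 other genes with a mean of at least 10 CPM. For Lgr5 they were Csrp2 (0.0477), Lars (0.0499) and Tube1 (0.0555), where the median over all genes was 0.266. For Ascl2 they were Cdc6, Cdkn3 and Sytl2, for Cdca7 Melk, Slfn9 and Sltm, for Prom1 Tm9sf2, Mecom and Cdh17, for Lrig1 Kif21b and Map2k7, and for Rgmb Hs3st1, Il15 and Apopt1. Among the 6 markers of that abundance, Lgr5 and Ascl2 differed by 0.121, where the medians over all genes were 0.266 for Lgr5 and 0.243 for Ascl2. Rgmb and Lrig1 differed by 0.112 and Rgmb and Prom1 by 0.120, close to the medians of 0.119 for Rgmb, 0.119 for Lrig1 and 0.117 for Prom1. The least alike were Lgr5 and Prom1 (0.331). The measure takes in the difference between genotypes, so markers that both fell lie closer than the median gene for that reason. It therefore adds no separate sign that they move together, and likeness within a genotype was not tested.

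Markers of other cells moved with genotype too, and their part in the results was not tested. Their counts stand beside 7.63% of all genes tested called higher and 8.26% called lower. Of 20 tested absorptive colonocyte genes 14 rose and 1 fell, with summed levels of 11614 to 12102 CPM in KO and 8920 to 9781 CPM in WT. The carbonic anhydrase gene Car1 (log2 fold change 0.96), Krt20 (0.76), Cyp2c55 (0.88) and Lypd8 (0.43) rose, and the gene that fell, named after its value was seen, was the water channel gene Aqp8 (-1.28). Its libraries overlapped, with 37.2, 15.9, 31.4 and 6.59 CPM in WT replicates 13 to 16 and 7.69 to 12.4 CPM in KO. Of 14 goblet cell genes 7 fell and none rose (188 to 220 CPM in KO, 232 to 296 in WT), among them the trefoil factor gene Tff3 (-0.88), Agr2 (-0.58), Fcgbp (-0.43) and Bcas1 (-0.55).

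Of 10 tested enteroendocrine genes 4 fell and none rose (19.1 to 28.8 CPM in KO, 28.9 to 42.1 in WT). They were the hormone genes Gcg (-1.81), Pyy (-0.87) and Insl5 (-1.66) and the transcription factor gene Insm1 (-1.75). All but Pyy were scarce. Insm1 had 0.108 to 0.260 CPM in KO and 0.303 to 0.815 in WT, and Gcg 0.331 to 0.907 in KO and 1.62 to 2.83 in WT. Insl5 had 0 CPM in KO replicate 5 and barely passed (edgeR adjusted p = 0.0484). Of 10 tested deep crypt secretory and Paneth cell genes, the niche neighbours of the stem cells, 3 fell and 1 rose (410 to 444 CPM in KO, 450 to 494 in WT). Nearly all of these sums was Cd24a, at 391 to 410 CPM in KO and 428 to 470 in WT. The other 6 genes were not called, among them Reg4, named after its value was seen (-0.84, edgeR adjusted p = 0.152), whose libraries overlapped. Kit was scarce, at 0.307 to 0.485 CPM in KO and 0.648 to 1.13 in WT. Cd24a (-0.17), Kit (-1.11) and Dll4 fell and Pnliprp2 (0.62) rose, the Dll4 call with the limits given above. The lysozyme genes did not pass the count filter. Lyz2 was seen in KO replicate 6 alone, and Lyz1 had 29 counts there and 0 to 12 elsewhere. Of 2 tested tuft cell genes Avil fell (-0.91), with sums of 0.517 to 1.01 CPM in KO and 1.03 to 1.61 in WT, and 5 of the 9 on that list had 0 counts throughout.

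Of 9 colonic epithelium genes 3 rose, among them Cdx2 (0.33) and Vil1 (0.25), and none fell, with sums of 11274 to 11763 CPM in KO and 10932 to 11585 CPM in WT, so that the epithelial label was met. Of 16 markers of fibroblasts, endothelium, glia and blood cells 12 did not pass the count filter, with Cdh5, Kdr and Pecam1 almost only in KO replicate 6, and Col1a2, Dcn, Lum and Cd3e had 0 counts in all libraries. Their sum was 29.6 to 37.03 CPM in KO and 32.1 to 44.6 CPM in WT. Most of it came from Cd68, a lysosomal gene of macrophages, which fell from 38.4 ± 5.56 to 31.0 ± 2.47 CPM (SD, n = 4; edgeR adjusted p = 0.0399).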

How the data were processed

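The authors deposited 1 table with whole-number counts per gene and library, not normalized, and their FPKM and TPM values, scaled for transcript length and depth. The submitters' processing notes name HTSeq, Bowtie2, TopHat and TopHat2 with GRCm38, giving neither role nor version. Libraries were stranded, per the labels' protocols, and the sources used here do not say if counting used strand. Genes that overlap a marker in GENCODE M21 and are in the table had 0 counts, except Slc25a26 (144 bases shared with Lrig1) and a microRNA gene inside Lrig1. More genes held 2 counts than 1 in each library, so both mates of a pair may have been counted. A count of 0 then allows 6 counts (0.121 to 0.162 CPM).

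Low counts were removed with filterByExpr and TMM factors computed, then edgeR 4.0.16 (R 4.3.3) ran its quasi-likelihood test, with adjustment over all genes and a threshold of 0.05. CPM is TMM-scaled, and log2 CPM used a prior count of 2. Libraries were compared with exact permutation tests (scipy 1.17.1). No 2 libraries held identical values. On simulated counts for KO against WT with 13651 genes, the test found 70% of the genes set to change 1.25-fold, 68% of the 1.5-fold ones, 92% of the 2-fold ones and every 3-fold one (100%), and called 4 unchanged genes.

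The markers, 18 other gene lists and the tests were chosen with earlier results of these data known. All markers are named. From each other list up to 4 called genes with the smallest adjusted p are named, or, where none passed, the 2 most abundant. For likeness, the 3 nearest genes of each marker of at least 10 CPM are named. A few genes that these rules name are not reported here. Promoter letters are RefSeq's for GRCm38.p6, and the E2F and CCAAT letters were chosen after the sequences were seen. Alternatives were other scalings, DESeq2 1.42.0, limma-voom (limma 3.58.1), other low-count filters, an adjusted p of 0.01 and leaving out each library.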

Additional observations from a re-analysis of the deposited data

Results flagged for a closer look

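In 4 of 22 groups of 4 libraries checked, 1 library stood apart from the other 3 by Dixon's 95% criterion. Chance alone meets it in about 1 group in 20 where values are normally distributed. For Smoc2, WT replicate 15 had 1.87 CPM (88 counts), above the other WT libraries. Without it the log2 fold change of Smoc2 was -0.91 and still passed. The other 3 cases were in WT replicate 14, each from a few counts where the other WT libraries had 0: Olfm4 at 0.0404 CPM (2 counts), Tnfrsf19 at 0.0606 CPM (3 counts) and Msi1 at 0.121 CPM (6 counts). Where the other 3 libraries are at 0, any count meets the criterion, so that rate does not apply to these cases.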

How the results depend on the processing

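Lgr5, Smoc2 and Cdca7 stayed lower and past the threshold under all 15 settings other than the stricter threshold, and Rgmb and Lrig1 passed under none. Ascl2 (14 of 15) and Prom1 (13 of 15) lost the call only without the libraries named above. Rgmb, which was not called, ran from -0.069 to 0.0083 on leaving out 1 library, above 0 without KO replicate 7 (0.0036) or 8 (0.0083). Other uncalled genes that changed sign were Ephb2 (-0.040 to 0.018, above 0 without WT replicate 16) and Prom2 (-0.15 to 0.084, with 0.033 and 0.023 on leaving out KO replicates 6 and 7, 0.084 and 0.067 for WT replicates 14 and 16). Leaving out 1 library, the markers called numbered 3 to 4 lower and 0 to 1 higher. The genes called higher ran from 696 (without KO replicate 8) to 1386 and those lower from 724 to 1404, with 757 higher once KO replicate 5 was left out and 808 lower once WT replicate 13 was. At an adjusted p of 0.01, 562 genes were higher and 597 lower, with 0 markers higher and 3 lower. Lgr5 minus the mitosis mean ran from -0.18 to -0.12 without 1 library, where the exact permutation test cannot pass. No paired analysis was possible because the genotypes share no replicate numbers. With Aurkb as the reference, added after seeing the data, it turned to 0.058. Depth limits Smoc2, Smoc1, Olfm4, Tnfrsf19 and Msi1, and also Gcg, Insl5, Insm1, Kit and Avil.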
